A study of Rattus norvegicus with 12 samples.

Results

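The E2F transcription factors and the pocket proteins that bind them were followed in H9c2 cells, a rat line derived from embryonic heart. The genes were taken by symbol from a list of 10 names (E2f1 to E2f8, Rb1 and Rbl1). Of these, 9 were matched among the 30562 genes of the table, and all 9 averaged 1 TPM or more, so that they were tested, among 12263 genes in all. TPM is a length-scaled share of a library's total, so levels can be compared between genes, and the depth behind them is unknown. E2f1 was not matched by symbol and was not analysed here. A row named Necab3 (ENSRNOG00000016708) carries E2F1 as its KEGG orthology name, and in the GRCr8 gene table Necab3 and E2f1 lie near each other on the same chromosome, so it is uncertain which gene its values stand for. That row averaged 5.34 TPM with MMA+FA, 5.50 with MMA, 5.25 with FA and 5.49 in control cells, and it is not counted below.

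The study set cells given methylmalonic acid and folic acid together (MMA+FA), methylmalonic acid alone (MMA) or folic acid alone (FA) against control cells, with 3 libraries of polyadenylated RNA in each of the 4 groups. Methylmalonic acid accumulates when cobalamin-dependent propionate breakdown fails, and folic acid is the synthetic vitamin. All groups share this line and the labels name no genetic change; the sources used here give neither the dose nor the duration of either treatment. Whether the replicates were separate cultures is not stated, so p-values may measure only technical spread. The labels call the cells cardiomyocytes. Of 10 cardiomyocyte markers analysed, only Tnnt2, Nkx2-5 and Gata4 averaged at least 1 TPM, while Myh6, Myh7, Actn2 and Ryr2 stayed at or below 0.2 TPM in every library. Of the skeletal myoblast markers, Myod1 lay between 28.2 and 74.2 TPM, while Myf5 stayed at or below 0.08 TPM and Chrna1 at or below 0.71. The summed cardiomyocyte markers ranged from 83.9 to 103.5 TPM with MMA+FA, 38.2 to 40.6 with MMA, 61.6 to 64.3 with FA and 32.2 to 37.9 in control cells, while 8 summed skeletal myoblast markers ranged from 178 to 197.1 TPM with MMA+FA, 213.6 to 217.3 with MMA, 217.1 to 268.8 with FA and 231.5 to 246.7 in control cells, with Pax7 at 0 throughout. Most of the first difference was Tnnt2, which averaged 73.6 TPM with MMA+FA, 21.4 with MMA, 44.45 with FA and 16.1 in control cells. Nkx2-5 averaged 11.3 TPM with MMA+FA, 11.15 with MMA, 12.1 with FA and 11.04 in control cells, and Gata4 averaged 5.69 with MMA+FA, 6.03 with MMA, 5.68 with FA and 6.41 in control cells. Their part in the results below was not tested. In bulk RNA, fewer cycling cells and less RNA per cell cannot be told apart.

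E2F proteins bind DNA, mostly as heterodimers with DP proteins, at promoters of genes for DNA synthesis and mitosis. In resting cells the pocket proteins (pRB from Rb1, p107 from Rbl1, p130 from Rbl2) hold them in repressive complexes; cyclin-dependent kinases phosphorylate the pocket proteins and release this hold as cells enter S phase. E2F1, E2F2 and E2F3 are classed as activators, E2F4 and E2F5 as pocket-protein-dependent repressors, E2F6 as a repressor that works with Polycomb proteins without pocket proteins, and E2F7 and E2F8 as atypical repressors that bind DNA without DP.

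In control cells E2f4 had the highest level of the family, 49.2 ± 1.58 TPM (mean ± SD, n = 3). Rb1 followed at 22.7 ± 1.44, then E2f6 at 18.7 ± 0.0755 and E2f5 at 18.4 ± 1.44, whose libraries overlapped. Rbl1 was at 10.5 ± 0.365, E2f3 at 9.35 ± 0.482 and E2f7 at 8.14 ± 0.319 TPM, each apart from its neighbours. E2f8 (4.82 ± 0.385) and E2f2 (4.35 ± 0.591) were lowest and overlapped. E2f4 was highest and E2f2 lowest in each of the 4 groups. The order between them shifted: E2f6 stood above Rb1 with MMA+FA, with no overlap, whereas Rb1 stood above E2f6 in control cells.

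**Figure D1:**
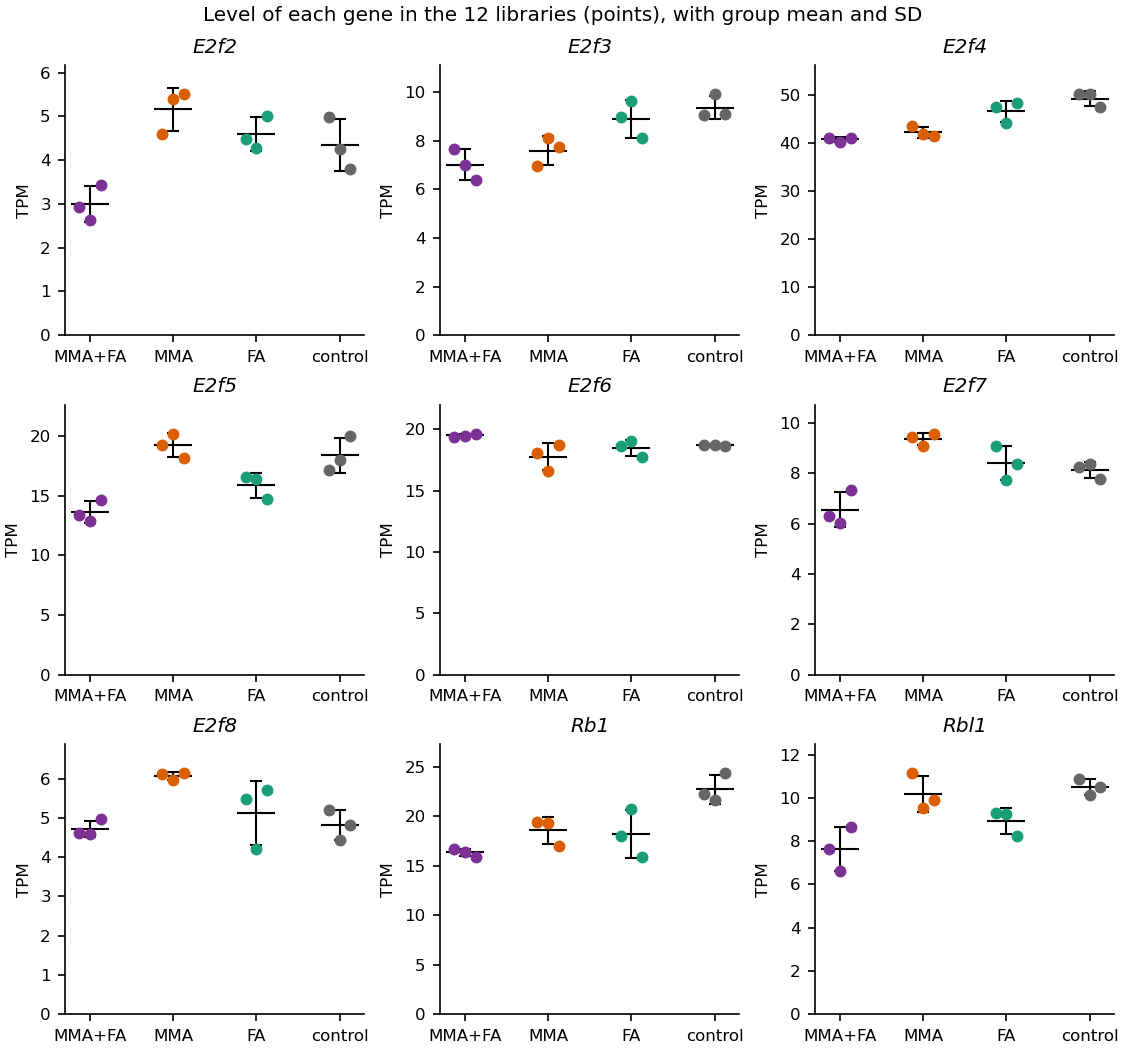
Level in TPM (vertical axes, starting at 0) of each of the 9 genes in every library, by group; bars are group mean and SD, n = 3. Except for E2f6 and E2f8, the MMA+FA libraries lie below all control libraries. The share of all genes tested with such a gap was not counted, and 32.6% were called lower in this comparison.

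Treatment with both acids lowered most of the family. In MMA+FA against control, 7 of the 9 genes fell and 0 rose at a Benjamini-Hochberg adjusted p under 0.05 in limma (E2f2, E2f3, E2f4, E2f5, E2f7, Rb1 and Rbl1), where 39.3% of all genes tested were called and 32.6% were lower. The median difference of the 9 was -0.37 on log2(TPM + 1), a scale that understates changes of low genes, against -0.12 for all genes tested. Because the typical gene moved by that much, each library was also scaled by its median ratio. Then 6 of the 9 fell and 1 rose (median -0.26), where 1710 of 12263 genes tested were lower and 1898 were higher. E2f7 lost its call (-0.17, adjusted p = 0.104) and E2f6 was called higher (0.18, adjusted p = 0.0266). Across the 4 groups, limma's F test called 7 of 9, where 41.0% of all genes tested were called.

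Each acid alone moved fewer of them. In MMA against control 3 of 9 fell (E2f3, E2f4 and Rb1) and 0 rose, where 20.4% of all genes tested were called and 16.5% were lower. Under median-ratio scaling only E2f4 was lower (-0.14, adjusted p = 0.0494), while E2f7 (0.25, adjusted p = 0.0386) and E2f8 (0.35, adjusted p = 0.0261) were higher. With that scaling 847 of 12263 genes tested were lower and 1001 were higher. In FA against control 1 of 9 fell (Rb1) and 0 rose, where 12.4% of all genes tested were called and 8.70% were lower. Under median-ratio scaling 0 of 9 were called, where 1185 of 12263 genes tested were called. As deposited, 3 of 9 had an unadjusted p under 0.05 in limma, as did 3809 of all 12263 genes tested, a similar share. These 3 comparisons share the control libraries.

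Adding FA to MMA lowered E2f2, E2f5, E2f7 and Rbl1, which is 4 of 9, where 13.7% of all genes tested were called and 9.53% were lower. Median-ratio scaling also called 4 of 9 lower, where 759 of 12263 genes tested were lower. Adding MMA to FA lowered E2f2, E2f3, E2f4 and E2f7, again 4 of 9, where 10.5% of all genes tested were called and 8.90% were lower. Under median-ratio scaling only E2f2 was called there (-0.43, adjusted p = 0.0349), where 723 of 12263 genes tested were called and 302 were lower. The interaction, which asks whether the effect of MMA differed between cells with and without FA, was negative and called for 2 of 9 (E2f2 and E2f7), where 2.41% of all genes tested were called and 1.47% were called negative.

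**Figure D2:**
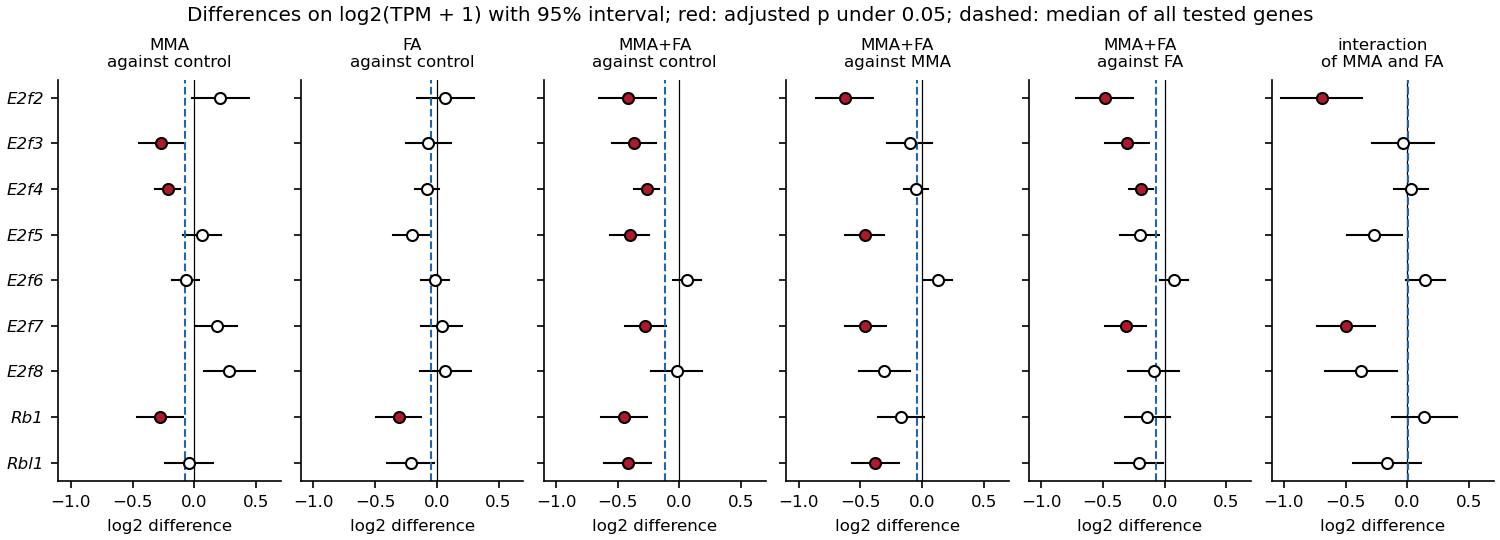
Log2 difference of each gene in the 5 comparisons and the interaction (horizontal axes, log2(TPM + 1)), with its 95% interval; red points had an adjusted p under 0.05, and the dashed line is the median of all genes tested. In MMA+FA against control 7 of 9 points are red and below 0.

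Promoters are shown for the called genes found in RefSeq's table for GRCr8, a later build than the mRatBN7.2 of the values; E2f2, E2f4 and E2f5 are named only. Each runs 5′ to 3′ from 250 bases before to 50 after the annotated start. Searched on both strands were TTTNGCGC, a form of the E2F element, and TTTGAA, the core of the cell cycle homology region bound by complexes with the MuvB core; the motifs did not overlap in these windows. Capitals mark matches.

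Rbl1 lies at chr3:166289327-166289626 (minus strand), shown for its E2F element.
Rbl1: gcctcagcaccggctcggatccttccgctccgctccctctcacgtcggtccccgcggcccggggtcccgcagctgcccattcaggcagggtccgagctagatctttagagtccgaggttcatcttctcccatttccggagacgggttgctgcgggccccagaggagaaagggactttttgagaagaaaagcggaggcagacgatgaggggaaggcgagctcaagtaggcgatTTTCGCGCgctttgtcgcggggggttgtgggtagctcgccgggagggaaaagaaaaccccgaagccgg
E2f3 lies at chr17:34810166-34810465 (plus strand), shown for its TTTGAA match.
E2f3: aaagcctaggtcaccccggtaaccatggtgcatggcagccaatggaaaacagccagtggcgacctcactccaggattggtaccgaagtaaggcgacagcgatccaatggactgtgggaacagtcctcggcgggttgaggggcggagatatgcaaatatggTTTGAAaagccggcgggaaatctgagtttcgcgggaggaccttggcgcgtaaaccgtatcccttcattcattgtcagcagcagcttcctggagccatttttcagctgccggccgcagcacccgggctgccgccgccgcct
E2f7 lies at chr7:48036653-48036952 (plus strand), shown beside them because it fell with MMA+FA as well.
E2f7: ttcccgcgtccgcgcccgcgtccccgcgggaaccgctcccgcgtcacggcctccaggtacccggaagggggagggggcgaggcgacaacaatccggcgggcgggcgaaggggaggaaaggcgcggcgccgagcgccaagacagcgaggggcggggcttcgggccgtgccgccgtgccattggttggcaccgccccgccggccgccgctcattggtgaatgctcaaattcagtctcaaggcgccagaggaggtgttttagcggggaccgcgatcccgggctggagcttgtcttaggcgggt
Rb1 lies at chr15:54911808-54912107 (minus strand), shown because it was called against control in all 3 treatments.
Rb1: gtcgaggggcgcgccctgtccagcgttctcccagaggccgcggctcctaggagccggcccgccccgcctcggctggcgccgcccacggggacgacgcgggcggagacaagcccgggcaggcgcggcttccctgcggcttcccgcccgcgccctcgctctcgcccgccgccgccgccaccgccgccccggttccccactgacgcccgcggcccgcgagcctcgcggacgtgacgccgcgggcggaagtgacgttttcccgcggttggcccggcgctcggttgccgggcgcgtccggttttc

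The Rbl1 window held 1 match to TTTNGCGC, TTTCGCGC, 11 to 18 bases before the start. Of 33469 rat promoters of the same length, 1.28% held at least 1 match. E2f3 held 1 TTTGAA, 85 to 90 bases before its start, as did 18.3% of promoters at any position. The E2f7 and Rb1 windows held neither string, nor did that of E2f6. Other forms of the E2F element were not searched in any window, so an element of another form may be present. A match is a string in the sequence, and no binding was measured.

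Of the activator genes, E2f2 gave the widest swing. It had 2.94, 2.63 and 3.43 TPM in MMA+FA replicates 1 to 3, 4.60, 5.39 and 5.51 with MMA, 4.49, 4.27 and 5.02 with FA, and 4.98, 4.25 and 3.81 in control cells. Every MMA+FA library lay below every other library, and the other 3 groups overlapped. The MMA+FA mean was 0.69 times that of control (log2 -0.42, SE 0.11, adjusted p = 0.0087; -0.32 and adjusted p = 0.0369 under median-ratio scaling), 0.581 times that of MMA (-0.63, SE 0.11, adjusted p = 0.00226) and 0.653 times that of FA (-0.49, SE 0.11, adjusted p = 0.0187). MMA alone (0.21, adjusted p = 0.18) and FA alone (0.07, adjusted p = 0.699) did not pass.

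MMA went with a higher mean of E2f2 in cells without FA and a lower one in cells with FA, and the interaction was -0.69 (SE 0.15, 95% interval -1.02 to -0.37, adjusted p = 0.0343). That call was lost in 8 of the 12 fits that each left out 1 library (MMA replicates 2 and 3, FA replicates 1 and 3, MMA+FA replicates 1 and 2, control replicates 2 and 3), in which it ranged from -0.71 to -0.62 with adjusted p from 0.0597 to 0.0896, and with a replicate block (-0.69, adjusted p = 0.0595). Without a filter on low values the interaction had adjusted p = 0.0792. The call against FA was lost without FA replicate 1, FA replicate 3 or MMA+FA replicate 2 (-0.50 to -0.42, adjusted p from 0.0563 to 0.0677). It was also lost with only these groups in the fit (adjusted p = 0.0962).

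E2f3, the other activator measured, followed MMA. It had 7.67, 6.99 and 6.38 TPM with MMA+FA, 6.96, 8.10 and 7.72 with MMA, 8.97, 9.61 and 8.09 with FA, and 9.07, 9.91 and 9.08 in control cells. The MMA+FA libraries lay below all FA libraries and the MMA libraries below all control libraries, while FA and control overlapped. MMA lowered it in cells without FA to 0.812 times control (log2 -0.27, SE 0.08, adjusted p = 0.0372) and in cells with FA to 0.789 times FA alone (-0.30, SE 0.08, adjusted p = 0.0375), estimates that share no library. The interaction was -0.03 (95% interval -0.29 to 0.22), and FA alone gave -0.07 (95% interval -0.25 to 0.11).

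Against control, MMA+FA gave E2f3 a mean 0.75 times as high (-0.37, SE 0.08, adjusted p = 0.00413; -0.26 and adjusted p = 0.0358 under median-ratio scaling). The calls with MMA were less firm. That against control was lost in 6 of 12 fits (without MMA replicate 1 or 3, FA replicate 1, or any 1 control replicate; -0.29 to -0.22, adjusted p from 0.0511 to 0.119) and that against FA in 6 (without FA replicate 1 or 2, MMA+FA replicate 2 or 3, or control replicate 1 or 3; -0.30 to -0.25, adjusted p from 0.0518 to 0.116). Under median-ratio scaling they had adjusted p = 0.13 and adjusted p = 0.113. Without a filter on low values they had adjusted p = 0.0736 and adjusted p = 0.0776. That against FA was also lost with only these groups in the fit (adjusted p = 0.132).

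E2f4, whose product carries most pocket-protein repression in resting cells, also followed MMA, with less scatter. It had 41.0, 40.1 and 40.9 TPM with MMA+FA, 43.5, 41.8 and 41.4 with MMA, 47.4, 44.1 and 48.3 with FA, and 50.1, 50.1 and 47.4 in control cells. All 6 libraries given MMA lay below all 6 without it. MMA lowered E2f4 to 0.858 times control (log2 -0.22, SE 0.05, adjusted p = 0.00805, called in 12 of 12 fits without 1 library) and MMA+FA lowered it to 0.874 times FA alone (-0.19, SE 0.05, adjusted p = 0.0248). The interaction was 0.03 (95% interval -0.11 to 0.17). Against control MMA+FA gave -0.27 (SE 0.05, adjusted p = 0.000861), or -0.15 under median-ratio scaling (adjusted p = 0.0245). The call against FA was lost without FA replicate 1 or 3 or MMA+FA replicate 2 or 3 (-0.19 to -0.16, adjusted p from 0.0632 to 0.0832), and under median-ratio scaling (-0.12, adjusted p = 0.128). It was also lost with only these groups in the fit (adjusted p = 0.12).

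E2f5, the second repressor of this class, behaved otherwise. It had 13.4, 12.9 and 14.6 TPM with MMA+FA, 19.25, 20.2 and 18.2 with MMA, 16.5, 16.4 and 14.7 with FA, and 17.1, 18.0 and 20.0 in control cells. All 6 libraries given FA lay below all 6 without it, the MMA+FA libraries lay below the FA libraries, and MMA overlapped control. FA added to MMA lowered it to 0.71 times MMA alone (log2 -0.47, SE 0.07, adjusted p = 0.00125, called in 12 of 12 fits without 1 library). FA alone gave -0.20 (SE 0.07, adjusted p = 0.0836), and MMA alone 0.06 (adjusted p = 0.569). MMA added to FA gave -0.20 (adjusted p = 0.0845). The interaction, -0.27 (95% interval -0.49 to -0.05), had adjusted p = 0.197. MMA+FA stood at 0.742 times control (-0.40, SE 0.07, adjusted p = 0.00115, or -0.29 and adjusted p = 0.0074 under median-ratio scaling).

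E2f6 was the steadiest gene of the family. It had 19.4, 19.5 and 19.6 TPM with MMA+FA, 18.05, 16.6 and 18.7 with MMA, 18.6, 19.0 and 17.8 with FA, and 18.75, 18.7 and 18.6 in control cells. The MMA+FA libraries lay above all others, by a small margin. No comparison called it as deposited; differences between groups ran from -0.07 (MMA against control, adjusted p = 0.346) to 0.13 (MMA+FA against MMA, adjusted p = 0.117). Under median-ratio scaling MMA+FA against control was 0.18 (adjusted p = 0.0266).

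The atypical repressor gene E2f7 resembled E2f2. It had 6.31, 6.03 and 7.34 TPM with MMA+FA, 9.44, 9.10 and 9.58 with MMA, 9.09, 7.73 and 8.39 with FA, and 8.27, 8.38 and 7.78 in control cells. The MMA+FA libraries lay below all others and the MMA libraries above all others, while FA and control overlapped. MMA+FA lowered it to 0.70 times MMA (log2 -0.46, SE 0.08, adjusted p = 0.00195, called in 12 of 12 fits without 1 library), 0.781 times FA (-0.32, SE 0.08, adjusted p = 0.0257) and 0.806 times control (-0.28, SE 0.08, adjusted p = 0.0129). MMA alone gave 0.18 (SE 0.08, adjusted p = 0.107).

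For E2f7 the interaction was -0.50 (SE 0.11, 95% interval -0.73 to -0.26, adjusted p = 0.0343). It was called in 2 of the 12 fits without 1 library, those without FA replicate 2 or MMA+FA replicate 3; without each other library it lay between -0.52 and -0.45 with adjusted p from 0.0529 to 0.0956, and with a replicate block it had adjusted p = 0.0519. Without a filter on low values the interaction had adjusted p = 0.076. The call against FA was lost without FA replicate 1 or 3 or MMA+FA replicate 1 or 2 (-0.32 to -0.26, adjusted p from 0.0612 to 0.0927) and under median-ratio scaling (-0.25, adjusted p = 0.0634). It was also lost without a filter (adjusted p = 0.055) and with only the groups compared in the fit (adjusted p = 0.129). The call against control was lost without MMA+FA replicate 2 (-0.23, adjusted p = 0.0529) and under median-ratio scaling (-0.17, adjusted p = 0.104).

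E2f8, its close relative, had 4.62, 4.60 and 4.96 TPM with MMA+FA, 6.12, 5.96 and 6.14 with MMA, 5.49, 4.20 and 5.71 with FA, and 5.20, 4.43 and 4.83 in control cells. The MMA libraries lay above all 9 others, which overlapped among themselves. E2f8 just missed the threshold in MMA against control (1.26 times, log2 0.28, SE 0.09, adjusted p = 0.0512) and in MMA+FA against MMA (0.778 times, -0.31, SE 0.09, adjusted p = 0.0503). With FA replicate 2 left out both passed (adjusted p = 0.0152 and adjusted p = 0.0131). They also passed with FA replicate 3 left out (adjusted p = 0.0379 and adjusted p = 0.0377), with no mean-variance trend (adjusted p = 0.0439 and adjusted p = 0.0436) and with only the groups compared in the fit (adjusted p = 0.0285 and adjusted p = 0.0293). Each passed in only 2 of 12 fits without 1 library, with adjusted p as high as 0.152 and 0.134 in the rest. Neither passed without a filter on low values or with a pseudocount of 0.1. Under median-ratio scaling MMA against control passed (adjusted p = 0.0261), but MMA+FA against MMA did not (-0.27, adjusted p = 0.0775). The interaction was -0.37 (95% interval -0.66 to -0.08, adjusted p = 0.171). It became -0.49 (adjusted p = 0.0273) with FA replicate 2, the FA library lowest in E2f8, left out.

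**Figure D3:**
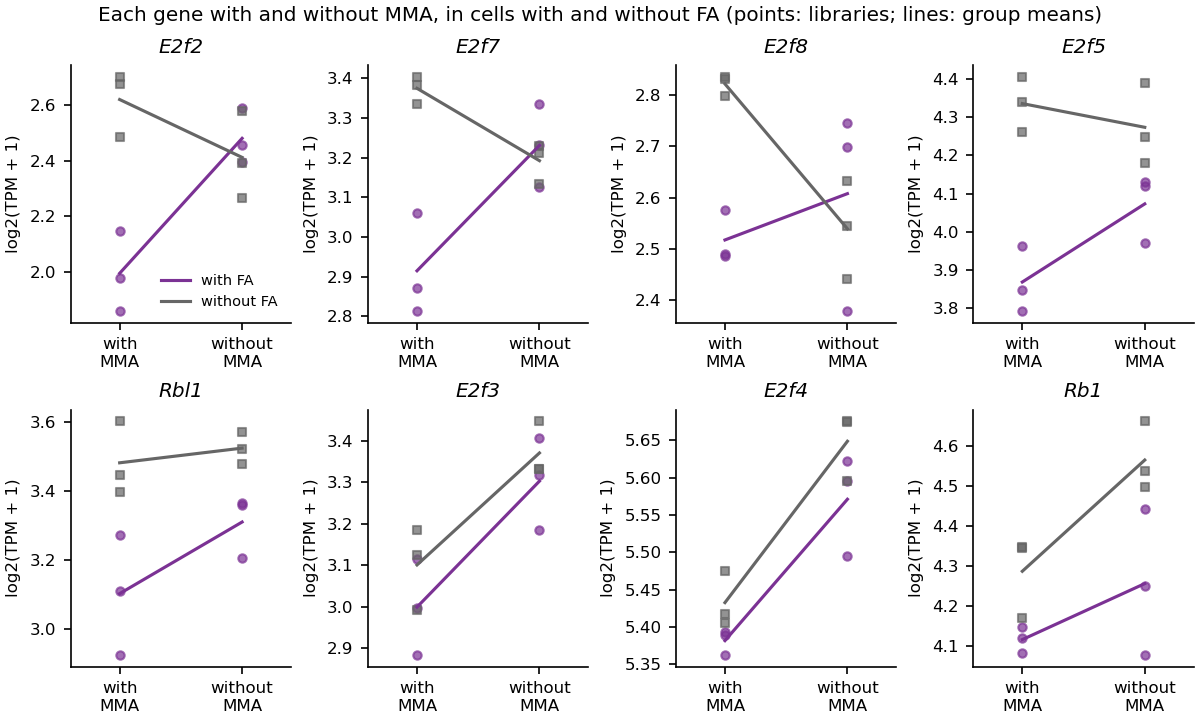
Log2(TPM + 1) of 8 genes in cells with and without MMA, in purple circles for cells given FA and grey squares for cells not given FA; lines join group means, and vertical axes do not start at 0. The lines cross for E2f2 and E2f7 (interactions -0.69 and -0.50) and for E2f8 (-0.37, not called), and run nearly parallel for E2f3 and E2f4 (-0.03 and 0.03).

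Rb1, which encodes pRB, was the gene of the family called against control in every treatment. It had 16.7, 16.4 and 15.9 TPM with MMA+FA, 19.4, 19.3 and 17.0 with MMA, 18.0, 20.7 and 15.9 with FA, and 22.2, 21.6 and 24.3 in control cells. All 9 treated libraries lay below all 3 control libraries. The MMA+FA mean was 0.719 times control (log2 -0.45, SE 0.09, adjusted p = 0.00168, called in 12 of 12 fits without 1 library, or -0.33 and adjusted p = 0.011 under median-ratio scaling), the MMA mean 0.817 times (-0.28, SE 0.09, adjusted p = 0.0373) and the FA mean 0.802 times (-0.31, SE 0.09, adjusted p = 0.0353). The second acid gave -0.17 added to MMA (adjusted p = 0.212) and -0.14 added to FA (adjusted p = 0.291), with an interaction of 0.14 (95% interval -0.12 to 0.40).

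For Rb1 the calls of the separate acids lay near the threshold and were lost in many fits without 1 library. In some of those fits the difference was larger than with all libraries. That of MMA was lost in 7 of 12 fits (without any 1 MMA or control replicate, or FA replicate 1; -0.31 to -0.22, adjusted p from 0.0511 to 0.144) and that of FA in 5 (without FA replicate 1 or 3 or any 1 control replicate; -0.34 to -0.22, adjusted p from 0.0588 to 0.144). Under median-ratio scaling they were -0.20 (adjusted p = 0.117) and -0.26 (adjusted p = 0.0654). Without a filter on low values they had adjusted p = 0.0747 and adjusted p = 0.0727. The call of FA was also lost with only the groups compared in the fit (adjusted p = 0.0908).

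Rbl1, which encodes p107 and is itself a known E2F target, was lower in the libraries given FA, as E2f5 was. It had 7.64, 6.60 and 8.67 TPM with MMA+FA, 11.1, 9.54 and 9.89 with MMA, 9.30, 9.27 and 8.23 with FA, and 10.9, 10.15 and 10.5 in control cells. All 6 libraries given FA lay below all 6 without it, and MMA overlapped control. FA added to MMA lowered it to 0.749 times MMA alone (log2 -0.38, SE 0.09, adjusted p = 0.0147), a call that did not hold when MMA replicate 1 was left out (-0.32, adjusted p = 0.0718) or MMA+FA replicate 2 (-0.29, adjusted p = 0.0531), nor with only these groups in the fit (adjusted p = 0.0527). FA alone gave -0.21 (SE 0.09, adjusted p = 0.124), MMA alone -0.04 (adjusted p = 0.767) and the interaction was -0.16 (95% interval -0.44 to 0.11, adjusted p = 0.544). MMA added to FA gave -0.21 (SE 0.09, adjusted p = 0.144), a difference of about the size of FA alone. MMA+FA stood at 0.727 times control (-0.42, SE 0.09, adjusted p = 0.00319, or -0.31 and adjusted p = 0.0149 under median-ratio scaling).

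Rbl2, the gene of the remaining pocket protein p130 and not on the list, averaged 11.2 ± 0.575 TPM with MMA+FA, 12.6 ± 0.864 with MMA, 12.2 ± 1.09 with FA and 12.8 ± 0.406 in control cells (SD, n = 3). It was called in none of the comparisons; MMA+FA against control gave -0.18 (adjusted p = 0.0581; unadjusted p = 0.0238 in limma).

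Partners and regulators of the family came next. The DP genes Tfdp1 and Tfdp2 were not called against control as deposited, and 1 of the 2 was higher with MMA+FA under median-ratio scaling. Tfdp2 was lower in MMA+FA against MMA (log2 -0.27, adjusted p = 0.0397), a call that median-ratio scaling did not keep (adjusted p = 0.0787). Of 5 genes of cyclin D and its kinases, which phosphorylate pocket proteins first, Ccnd2 was lower with MMA+FA (190.8 TPM against 225.4 in control cells, log2 -0.24, adjusted p = 0.00172) and with each acid alone (-0.18 each), calls that median-ratio scaling did not keep (adjusted p = 0.0658 for MMA+FA, adjusted p = 0.145 for MMA and adjusted p = 0.0804 for FA). Cdk4 was higher with MMA (0.13) and Cdk6 with FA (0.26). Of the genes of cyclin E and its kinase, Ccne1 was the one called against control, 0.18 higher with MMA (adjusted p = 0.0491).

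Of 6 tested inhibitors of these kinases, Cdkn2a, the locus of p16 and ARF, was higher in all 3 treatments: 92.2 TPM with MMA+FA (log2 0.47, adjusted p = 0.000307), 82.6 with MMA (0.31, adjusted p = 0.00805) and 84.95 with FA (0.35, adjusted p = 0.0109), against 66.4 in control cells. Cdkn2c was 0.29 higher with MMA. Cdkn2d (-0.45, adjusted p = 0.00101) and Cdkn1b, the gene of p27 (-0.30, adjusted p = 0.0076), were lower with MMA+FA, the second not under median-ratio scaling (adjusted p = 0.0956).

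The MuvB core joins E2F4 and p107 or p130 in the repressive DREAM complex. With MMA+FA 3 of its 5 genes were lower and 0 higher, Lin54 by -0.53, Lin9 by -0.39 and Lin37 by -0.25 (median -0.25), and 2 under median-ratio scaling. Of 8 tested partners of E2F6, 7 were lower with MMA+FA and 0 higher (median -0.24), led by Pcgf6 (-0.57) and Mga (-0.49), and 3 under median-ratio scaling, while E2f6 itself was not lower. Of 9 corepressor genes 5 were lower and 1 higher: Arid4a (-0.50) and Arid4b (-0.48), whose products bind pRB, fell, and Sin3b rose (0.22, adjusted p = 0.0132); 3 were lower and 2 higher under median-ratio scaling. Of 3 genes of E2F turnover 2 fell, Ccnf most (11.01 TPM with MMA+FA against 19.1 in control cells, -0.75, adjusted p = 6.82e-05). The other, Fzr1 (-0.24, adjusted p = 0.0219), was not called under median-ratio scaling (-0.12, adjusted p = 0.247). Of 3 genes of the phosphatase that removes phosphate from pocket proteins, Ppp1ca rose with MMA+FA (0.15, adjusted p = 0.0056). Of the 2 genes of the activators that join the MuvB core, neither was called against control as deposited. Under median-ratio scaling 1 was higher with MMA. Mybl2 was lower in MMA+FA against MMA (-0.45, adjusted p = 0.00492) and had a negative interaction (-0.53, adjusted p = 0.0461). Beside the counts for MMA+FA against control, 32.6% of all genes tested were lower in that comparison. Under median-ratio scaling 1710 of 12263 were lower and 1898 were higher.

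Known targets were read as a G1/S and a G2/M list, and the difference between the lists was not tested. With MMA, where 3.85% of all genes tested were higher, 11 of 31 G1/S targets rose and 0 fell (median 0.23; 17 rose under median-ratio scaling), with Tk1 at 49.5 TPM against 28.0 in control cells (log2 0.80, adjusted p = 0.00173), Mcm6 0.55 and Mcm7 0.47 higher. Of 18 G2/M targets 8 rose with MMA and 0 fell (median 0.16; 12 rose under median-ratio scaling), with Ccnb2 0.37 higher. Under median-ratio scaling 1001 of 12263 genes tested were higher with MMA. In MMA+FA against control 6.67% of all genes tested were higher and 32.6% were lower, or 1898 and 1710 of 12263 under median-ratio scaling. Of the G1/S targets 7 rose and 6 fell (median -0.03), or 11 and 2 under median-ratio scaling (median 0.07). Of the G2/M targets 0 rose and 16 fell (median -0.32), with 11 lower under median-ratio scaling (median -0.20). Among the G1/S targets Mcm6 (0.64) and Tk1 (0.63) rose, while Cdt1 (-0.41) and Rpa2 (-0.39) fell. Cenpe (-0.74), Hmmr (-0.72), Mki67 (-0.64) and Nusap1 (-0.56) were among the G2/M targets that fell. With FA 3.67% of all genes tested were higher and 8.70% were lower. There 1 G1/S target rose (Tk1, 0.59) and 1 fell (Rfc4, -0.20), and 2 G2/M targets fell (Hmmr -0.44 and Kif11 -0.26). Under median-ratio scaling Rfc4 (adjusted p = 0.158) and Kif11 (adjusted p = 0.0812) were not called with FA.

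Adding FA to MMA lowered 18 of 18 G2/M targets (median -0.53, and 18 under median-ratio scaling) and 11 of 31 G1/S targets (9 under median-ratio scaling), with 0 higher in either list. Over all genes tested 9.53% were lower in this comparison, and 759 of 12263 under median-ratio scaling. The interaction was called and negative for 9 of 18 G2/M and 4 of 31 G1/S targets, against 1.47% of all genes tested. Both lists hold genes of cycling cells; whether the share of such cells had a part in the values of E2f2, E2f5, E2f7 and Rbl1 was not tested. The lists were chosen with earlier results of these libraries known.

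**Figure D4:**
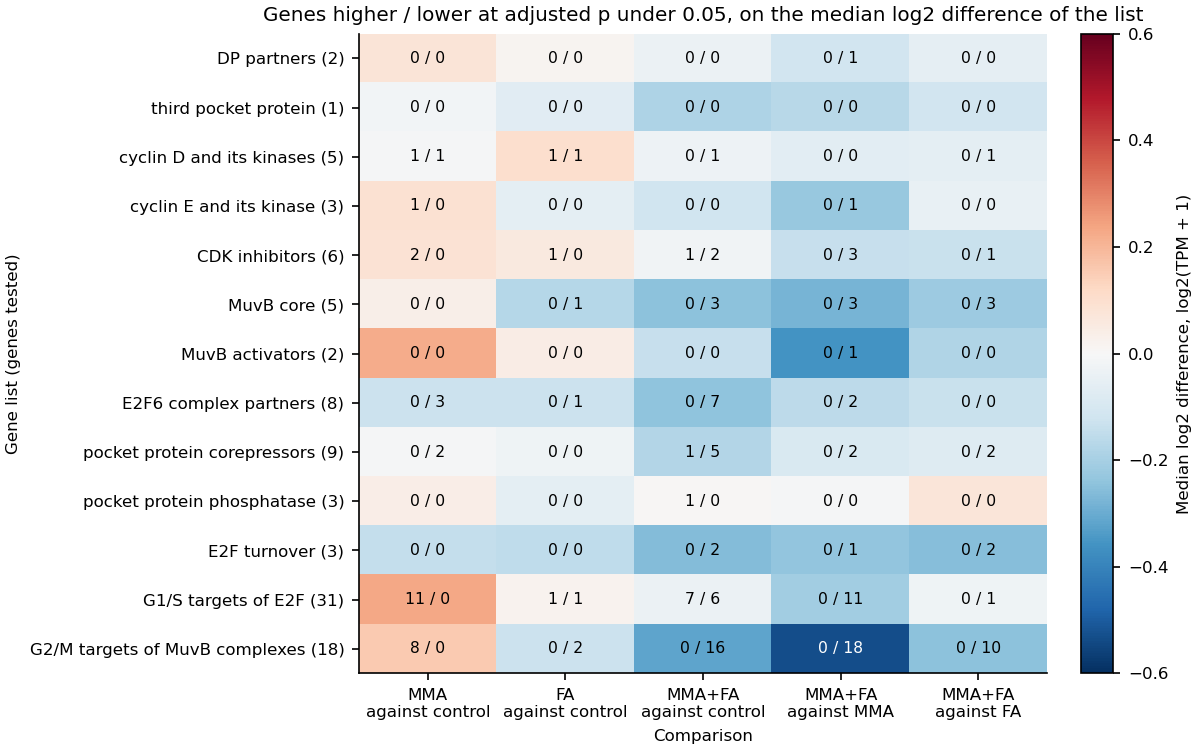
Number of genes higher and lower at an adjusted p under 0.05 in the lists of partners, regulators and targets (rows, with the number tested) and each comparison (columns), on a colour scale of the median log2 difference. G2/M targets read 8 / 0 with MMA alone and 0 / 18 when FA was added to MMA. Of all genes tested 3.85% were higher with MMA alone and 9.53% were lower when FA was added to MMA.

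The genes whose levels ran most like those of each gene differed by member. Over the 12 libraries, on log2(TPM + 1) and among genes that averaged 5 TPM or more, E2f5 was most like Kif11 (Pearson's r = 0.99), Anln (0.98) and Ttk (0.98), genes of spindle and cell division. After removal of the group means r was still 0.96, 0.89 and 0.90. Rbl1 was most like Slf1 (0.97), Ncapg (0.95) and Atad2 (0.95), E2f7 like Lmnb2 (0.95), Rfc5 (0.95) and Iqgap3 (0.94), and E2f2 like Cyren (0.94), Rfc5 (0.94) and H1f10 (0.93). Rb1 was most like Itfg1, Zmym2 and Efr3a (0.98 to 0.99), E2f4 like Abcf3, Eif4g3 and Mtcl1 (each 0.97) and E2f3 like Rhobtb1, Trit1 and Prr3 (0.92 to 0.93). These values were picked as the highest over all such genes and share the same 12 libraries and group differences, so they describe likeness only.

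Within the family, 25 of 36 pairs had a positive r over the 12 libraries (median 0.38), and the median fell to 0.06 once group means were removed. E2f2 and E2f7 (0.92; 0.57 within groups), E2f5 and Rbl1 (0.88; 0.49 within groups) and E2f3 and E2f4 (0.75; -0.46 within groups) were alike across groups. E2f6 ran against E2f2 (-0.70).

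**Figure D5:**
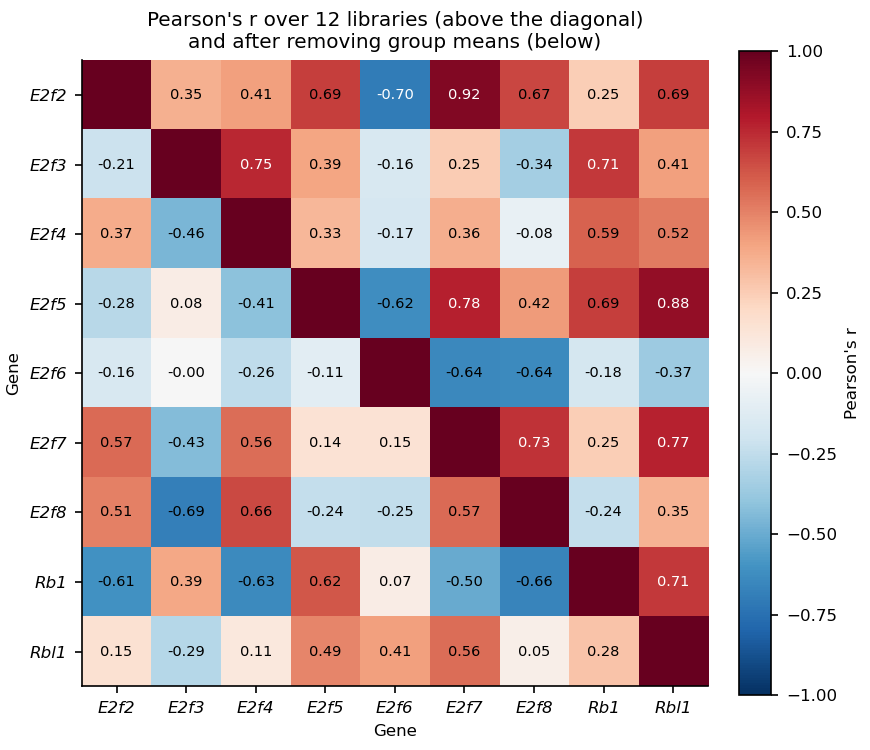
Pearson's r between the 9 genes on log2(TPM + 1), over the 12 libraries above the diagonal and after removal of group means below it. E2f2 with E2f7 (0.92) and E2f5 with Rbl1 (0.88) are the highest values above the diagonal.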

How the data were processed

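RNA of 12 libraries of H9c2 cells (4 groups of 3) was extracted with TRIzol and made into stranded mRNA libraries, per the labels' protocols. Reads were handled with fastp and HISAT2 on the build mRatBN7.2, per the submitters' processing notes. No source used here states their versions, the annotation or a strand setting. The authors deposited TPM for each gene; RSEM is named in the table's title alone. TPM keeps no depth, so neither depth nor counting error is known.

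The 12263 of 30562 genes averaging 1 TPM or more were fitted on log2(TPM + 1) with limma 3.58.1 (R 4.3.3) with a mean for each group and a trend of variance on level (8 residual degrees of freedom, prior 4.317). A call means an adjusted p (Benjamini-Hochberg, over all genes tested) under 0.05. An exact permutation of 3 against 3 libraries cannot go below p = 0.1 and was not used. The code was tested on simulated data. No pair of libraries held identical values.

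All 10 listed genes were to be named, with, per list of partners or targets, up to 4 called genes of the largest difference in each direction against control, and the 3 most correlated genes of each member called in the F test; a few genes this rule names are not reported here. The members and lists were chosen with earlier results of these data known. Alternatives were median-ratio scaling, a pseudocount of 0.1, no filter, no trend, only the groups compared, a replicate block, and each library left out. Figures used Python 3.11.15 and matplotlib 3.10.9.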

Additional observations from a re-analysis of the deposited data

Results flagged for a closer look

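The effect of MMA differed between cells with and without FA for E2f2 and E2f7, by limma's interaction test. For E2f2, MMA+FA against FA was -0.49 and MMA against control 0.21, and the difference between them was -0.69 (adjusted p = 0.0343). For E2f7 these were -0.32 and 0.18, and the difference was -0.50 (adjusted p = 0.0343). Both calls were lost with most libraries left out in turn, without a filter and with a replicate block, as given above with each gene. The cause was not tested.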

How the results depend on the processing

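The count of 7 of 9 genes in MMA+FA against control kept within 1.5 times under every alternative run (6 to 7 without 1 library). Its make-up changed under median-ratio scaling, to 6 lower and 1 higher, with E2f7 lost and E2f6 gained. Counts of genes of the family that moved were these. In MMA against control (3) it was 1 without a filter on low values, and 1 to 4 without 1 library. Median-ratio scaling also gave 3 there, but 1 lower and 2 higher, where all 3 were lower as deposited. In FA against control (1) the count was 0 under median-ratio scaling, without a filter and with only the groups compared, and 0 to 1 without 1 library. In MMA+FA against FA (4) it was 1 under median-ratio scaling, 2 without a filter, 0 with only the groups compared, and 0 to 4 without 1 library. The interaction (2) gave 0 without a filter and with a replicate block, and 0 to 3 without 1 library. MMA+FA against MMA gave 3 to 5 without 1 library and the F test 7 to 8. With the replicate block MMA against control gave 4, MMA+FA against MMA 5 and the F test 8; E2f8 was then called in both comparisons (adjusted p = 0.043 and adjusted p = 0.0408), and no call other than these and the interactions of E2f2 and E2f7 changed in the 5 comparisons and the interaction. Same-numbered libraries did not deviate together (r from -0.124 to 0.107 over 18 pairs), so the numbers were not taken as pairs.

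Over all genes tested, FA against control (1517) gave 928 without a filter, 604 with only the groups compared and 214 to 2571 without 1 library. MMA+FA against FA (1288) gave 723 under scaling, 699 without a filter, 23 with only the groups compared and 357 to 2010 without 1 library. The interaction (295) gave 181 without a filter and 85 to 496 without 1 library. Without 1 library, MMA against control (2501) gave 1173 to 3026 and MMA+FA against MMA (1683) gave 868 to 1948. The split of higher and lower genes in MMA+FA against control was 818 and 4000 as deposited and 1898 and 1710 under scaling; in MMA against control it was 472 and 2029, and 1001 and 847; in FA against control 450 and 1067, and 709 and 476; in MMA+FA against MMA 514 and 1169, and 784 and 759; and in MMA+FA against FA 196 and 1092, and 421 and 302.

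Differences that changed sign were small and not called. Under scaling E2f6 became 0.0044 and Rbl1 0.029 in MMA against control, E2f6 0.031 in FA against control and E2f8 0.0804 in MMA+FA against control. Without 1 library, FA against control ran from -0.0048 to 0.15 for E2f2, -0.036 to 0.0109 for E2f6, -0.0136 to 0.0909 for E2f7 and -0.0005 to 0.183 for E2f8; MMA+FA against control ran from -0.0708 to 0.0249 for E2f8; and the interaction from -0.0932 to 0.024 for E2f3 and -0.0114 to 0.0532 for E2f4. Of 963 alternative values of 54 differences, 858 kept direction and side of the threshold. Causes were not tested, apart from fewer libraries or genes by construction.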

Other observations

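The 7 E2F genes summed to 95.1 ± 2.28 TPM with MMA+FA, 107.4 ± 0.45 with MMA, 107.9 ± 2.62 with FA and 112.9 ± 1.29 in control cells (mean ± SD, n = 3 each). E2f4 and E2f5 together held 57.1 to 57.2% of that sum with MMA+FA, 55.6 to 58.1% with MMA, 57.4 to 58.3% with FA and 59.2 to 60.4% in control cells. E2f6 held 20.2 to 21.0% with MMA+FA and at most 18.1% in any other library. E2f7 and E2f8 held 14.1 to 14.7% with MMA, above the 11.3 to 13.2% of all other libraries. The level of E2f4 was 2.80 to 3.12 times that of E2f5 with MMA+FA, 2.07 to 2.28 times with MMA, 2.69 to 3.29 times with FA and 2.37 to 2.92 times in control cells. These are shares of levels as deposited, with no test.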
